A study of Homo sapiens with 12 samples.

Results

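The genes described here encode the proteins of the cytosolic ribosome. They were taken by symbol from the gene table of the second experiment: RPL or RPS followed by digits, with an A, X or L where the symbol has one, and the stalk genes RPLP0, RPLP1 and RPLP2. Pseudogenes, Y-linked copies, read-through symbols and the RPS6 kinases were left out. The rule gave 81 of 19128 symbols, 50 of them large subunit (stalk included) and 31 small subunit genes. Of these, 78 reached a mean of 1 FPKM (fragments per kilobase of transcript, scaled to the number of fragments mapped) in at least 1 group and were tested. The genes RPL3L, RPL10L and RPL39L did not.

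All libraries were poly-A RNA of HT-29, a human colorectal adenocarcinoma cell line. TBZ is a mixture of TNFα (20 ng/mL), BV6 (2 µM), which mimics the IAP antagonist Smac, and zVAD-fmk (30 µM), which inhibits caspases, and it sets off necroptosis, a form of cell death carried out by the kinase-like protein MLKL. In the second experiment, cells that carried a hairpin against GFP (shGFP, the control) or a lentiviral hairpin against MLKL (shMLKL) received DMSO or TBZ for 5 h, with 2 libraries in each of the 4 groups. The first experiment had a single library for each of 4 conditions: parental cells with DMSO, the same cells with TBZ for 4 h, shMLKL cells with DMSO, and shMLKL cells with TBZ for 12 h. Neither the labels nor the protocols say whether a hairpin line was a pool or 1 clone, or whether replicates came from separate cultures, so p-values measure the spread between these libraries, which may be technical.

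The libraries of the second experiment had between 82.9 and 100% of the depth of the deepest, estimated from the smallest values, and 9606 to 10047 genes at 1 FPKM or more. MLKL stood at 3.95 and 3.89 FPKM in shGFP under DMSO and at 0.606 and 0.545 FPKM in shMLKL under DMSO, a difference in log2(FPKM + 1) of −1.64 (SE 0.0961, limma, adjusted p = 9.87e-06). Of 11 colon epithelial markers, EPCAM, KRT20, VIL1 and LGALS4 were at 1 FPKM or more in all 8 libraries, whereas CDX1, CDX2 and GPA33 were below 1 FPKM in all 8. The keratins KRT8 and KRT18, which HT-29 cells make in quantity, were listed at 0 in 7 of the 8 libraries, and so a 0 in this table may be a missing estimate. Fibroblast and endothelial markers summed to at most 0.514 FPKM in any library, and of the leukocyte markers LYZ (521 to 658 FPKM) and CD68 were at 1 FPKM or more in every library while CD3E was at 0.

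The cytosolic ribosome joins a small subunit, which reads the message, to a large subunit, which forms the peptide bond, and each is built of ribosomal RNA and of proteins that single genes encode. Their messages belong to the most abundant in a growing cell and are known for 5′ terminal oligopyrimidine (TOP) starts, a C followed by an unbroken run of C and T, through which the kinase mTORC1 and the RNA-binding protein LARP1 control their translation and stability. Ribosomal protein genes are often regarded as a set that moves together.

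The start sites were read from the RefSeq promoter table (GRCh38.p14), in which 64 of the 81 symbols had an entry, with 79 start sites. An unbroken run of at least 7 C or T letters within 5 bases of the start was present at 56 of the 79 starts (70.9%) and at 5605 of all 35116 starts in the table (16.0%). The windows below reach from 15 bases before to 15 bases after the start, on the gene's strand, with the longest C or T run that comes within 5 bases of the start in capitals, and where a gene had several starts the one with the longest run is shown. They are the stalk genes and textbook members, then the genes on which the results turn.
RPLP0: gcgcgggcgcgaggCCCTTCTCTCgccagg
RPLP1: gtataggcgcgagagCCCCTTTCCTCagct
RPLP2: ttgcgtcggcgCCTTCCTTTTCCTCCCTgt
RPL11: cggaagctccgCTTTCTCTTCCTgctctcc
RPS6: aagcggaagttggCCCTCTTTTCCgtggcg
RPS3: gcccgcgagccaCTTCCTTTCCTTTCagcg
RPL41: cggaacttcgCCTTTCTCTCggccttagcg
RPS26: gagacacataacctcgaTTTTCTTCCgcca
RPL36A: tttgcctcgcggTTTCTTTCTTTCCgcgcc
RPL36AL: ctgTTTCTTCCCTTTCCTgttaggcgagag
RPS27: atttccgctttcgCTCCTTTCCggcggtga
RPS27L: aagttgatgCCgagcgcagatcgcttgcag
RPL10L: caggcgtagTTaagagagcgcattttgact

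The run spanned 10 letters in RPLP0 (chr12:120201097-120201126, minus strand), 11 in RPLP1 (chr15:69452803-69452832, plus strand) and 17 in RPLP2 (chr11:809952-809981, plus strand). In RPS26 (chr12:56041903-56041932, plus strand) it had 9 letters and began 3 bases into the transcript, counting the start as 1. RPL36A (chrX:101390996-101391025, plus strand) and its copy RPL36AL (chr14:49620612-49620641, minus strand) held runs of 13 and 15 letters. RPS27 (chr1:153990747-153990776, plus strand) had 9, while its copy RPS27L (chr15:63157463-63157492, minus strand) had no run above 2 letters near its start, and neither did RPL10L (chr14:46651767-46651796, minus strand). In the 300-base windows from 250 bases before to 50 after the start, the letters CTTCCG, a core of sites for ETS-family factors, stood on either strand at 59.5% of the member starts and at 19.5% of all starts, and TATAAA at 7.59% and 11.5%. The runs and letters were searched on sequence alone, after the promoters had been looked at, and a match is not evidence of a TOP message or of binding.

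In the second experiment the ribosomal protein messages ranged over more than an order of magnitude in FPKM, a scale that already divides by transcript length. The mean over the 8 libraries went from 29.7 FPKM (RPL36A, which holds zeros) to 1635 FPKM (RPL23), with a median over the 78 tested genes of 498 FPKM, and 70 genes were at 100 FPKM or more. Together the members made up 15.5 to 17.6% of all summed FPKM in a library. Large subunit genes summed to between 1.57 and 1.62 times the small subunit genes, with no library outside that range.

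**Figure D1:**
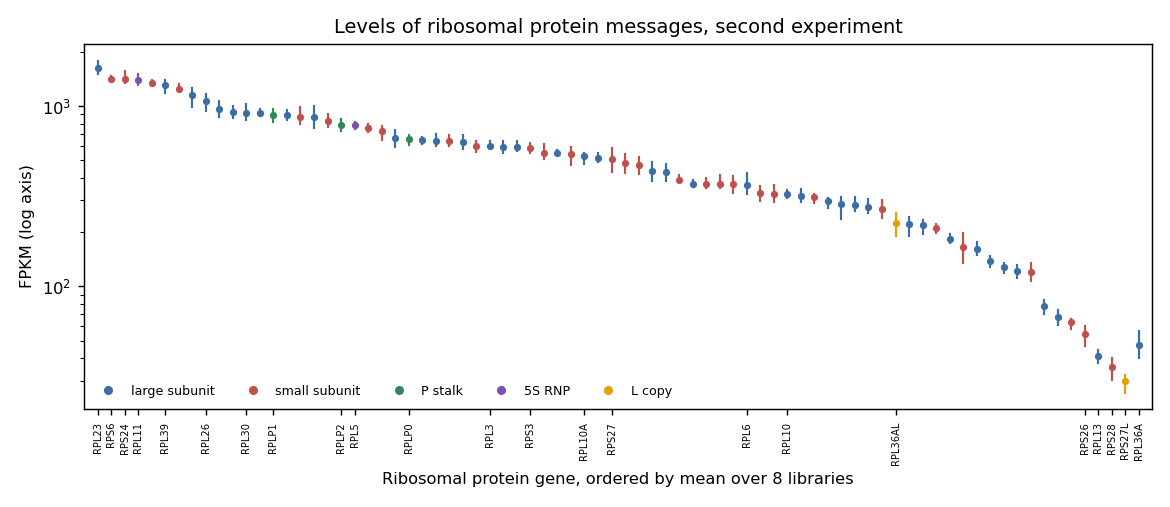
FPKM of the 78 tested genes (log axis), ordered by their mean over the 8 libraries of the second experiment; points are means, lines join the lowest and highest library, names are given for some of the genes that the text describes, and colours mark large subunit, small subunit, stalk, 5S RNP and L copies. RPL36A is drawn without the 3 libraries that list it at 0; for most other genes the line is shorter than the distance between genes far apart in the order.

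RPL23, a large subunit protein at the interface of the subunits, was highest, with 1512 to 1787 FPKM over the 8 libraries. RPS6, the small subunit protein that S6 kinase phosphorylates, followed with 1376 to 1459 FPKM, and RPS24 with 1345 to 1568 FPKM. The libraries of RPS24 overlapped with those of RPL23 and of RPS6, and so did RPL11 (1313 to 1509 FPKM) with RPS6 and RPS24, while every RPL23 library was above every RPS6 library. At the other end, next to RPS27L, stood RPS28 with 30.4 to 40.1 FPKM, RPL13 with 37.7 to 44.2 FPKM and RPS26 with 46.9 to 60.1 FPKM. RPL13 and RPS28 overlapped, and the lowest RPS26 library lay above the highest RPL13 library. RPL23, RPS24, RPL13 and RPS28 were picked for their levels after these were seen. Between libraries the members varied little: without RPL36A, the highest library was 1.06 to 1.45 times the lowest (median 1.18), and the coefficient of variation over the 8 libraries was under 10% for 72 of 77 genes. It was smallest for RPS6 (1.93%) and largest for RPS15 (13.04%).

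The 5 genes whose symbols end in L are copies of other ribosomal protein genes. RPL3L, which is known from heart and skeletal muscle, was listed at 0 in 6 of the 8 libraries and at no more than 0.0442 FPKM in the others, beside 587 to 641 FPKM of its parent RPL3. RPL10L, known from the testis, lay between 0.0549 and 0.278 FPKM, beside 308 to 341 FPKM of RPL10. RPL39L, also a testis gene that some tumours express, was listed at 0 in 1 library and at no more than 0.530 FPKM elsewhere, beside 1175 to 1394 FPKM of RPL39. RPS27L and RPL36AL were the copies above 1 FPKM in every library. RPS27L, a p53 target, lay at 25.8 to 32.3 FPKM, and RPS27 was 14.6 to 19.9 times as high within a library. RPL36AL lay at 191 to 256 FPKM, above RPL36A in every library.

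The first question was what 5 h of TBZ did to these messages in control cells, in which necroptosis can run to its end. The ribosomal protein messages were nearly level in shGFP cells: 0 of 78 rose and 3 fell (limma, adjusted p under 0.05), while 19.1% of all 10364 tested genes rose and 37.3% fell. At an unadjusted p under 0.05, 9 of the 78 differed, beside 6409 of all 10364 genes. Among the genes that fell were RPL6 and RPL10A, each by a small amount. No member differed by more than 0.25 in log2(FPKM + 1), against 48.6% of all genes. For 77 of the 78 genes the 95% interval of the difference lay within ±0.5, RPL36A being the exception, as it did for 59.3% of all genes. In these bulk libraries, fewer cells that carry a message and less message per cell cannot be told apart, and FPKM gives a share of the library rather than an amount.

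RPL6, a large subunit protein, had 427 and 413 FPKM under DMSO and 326 and 397 FPKM under TBZ. Both TBZ libraries were lower than both DMSO libraries, although the 2 TBZ libraries were farther apart than the lower DMSO library was from the higher TBZ library. Its difference was −0.22 (SE 0.0791, limma, adjusted p = 0.0448). RPL10A, near the exit of tRNA from the large subunit, had 537 and 529 FPKM under DMSO and 479 and 503 FPKM under TBZ, again without overlap, and fell by 0.12 (SE 0.0390, adjusted p = 0.0337). Both calls were near the threshold. They were lost without the first shGFP TBZ library, without either shGFP DMSO library or either shMLKL DMSO library, with equal library medians, with no filter on low values, with only the 4 libraries compared, or when the spread was not fitted as a trend. They were also lost with the replicate number as a block (limma, adjusted p = 0.0539 for RPL6 and 0.0515 for RPL10A), and RPL6 was lost without either shMLKL TBZ library. Without the second shGFP TBZ library both stayed called (limma, adjusted p = 0.000755 and 0.0314). Over all alternatives the adjusted p went from 0.000755 to 0.176 for RPL6 and from 0.000376 to 0.242 for RPL10A.

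The members leaned to lower values as a set without passing the test one by one. Their median difference was −0.08, and that of all tested genes −0.12. Both TBZ libraries lay below both DMSO libraries for 32 of the 78 genes (54.2% of all genes did so), and above them for 0 (26.6% of all genes). The lean depended on 1 library. In shGFP under TBZ, library 2 was higher than library 1 for 74 of 78 members, by a median of 0.12 in log2(FPKM + 1), whereas over all genes library 2 was higher for 49.9% with a median of 0. Without TBZ library 1 the members' median difference was −0.01 (all genes −0.11), and without TBZ library 2 it was −0.13 (all genes −0.13). Without DMSO library 1 it was −0.05, and without DMSO library 2 −0.10. Gaps between replicates were present in the other groups too. In shGFP under DMSO library 2 was higher for 11 of 78 members (median −0.04) and 54.0% of all genes. In shMLKL it was higher for 25 members under DMSO (−0.04, 48.8% of all genes) and 11 under TBZ (−0.07, 48.5%). The Pearson r of the gap with log2 transcript length was −0.17 in shGFP under TBZ. It was 0.05 in shGFP under DMSO, 0.34 in shMLKL under DMSO and 0.005 in shMLKL under TBZ. Each r is over 78 genes, which share the 2 libraries, and what set the gaps was not tested. The counts also moved with the scaling. With library medians set equal 1 member rose and 0 fell, while 22.6% of all genes rose and 28.2% fell. After quantile normalization 40 members fell (51.3%), beside 32.7% of all genes. When each library was scaled to the same summed FPKM 32 fell (41.0%), beside 43.1% of all genes. Relative to the median of all genes, the members' median was 0.05 higher as deposited, a value that equal medians cannot change. It was 0.06 higher with equal sums and 0.07 lower (−0.07) after quantile normalization. The sign of this relative median also turned with a pseudocount of 10 (−0.02), with no filter on low values (−0.03) and without the second shGFP TBZ library (−0.01). With a filter at a mean of 10 FPKM it was 0.003. Among all called genes, 33.9% were higher as deposited and 44.5% with equal medians.

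**Figure D2:**
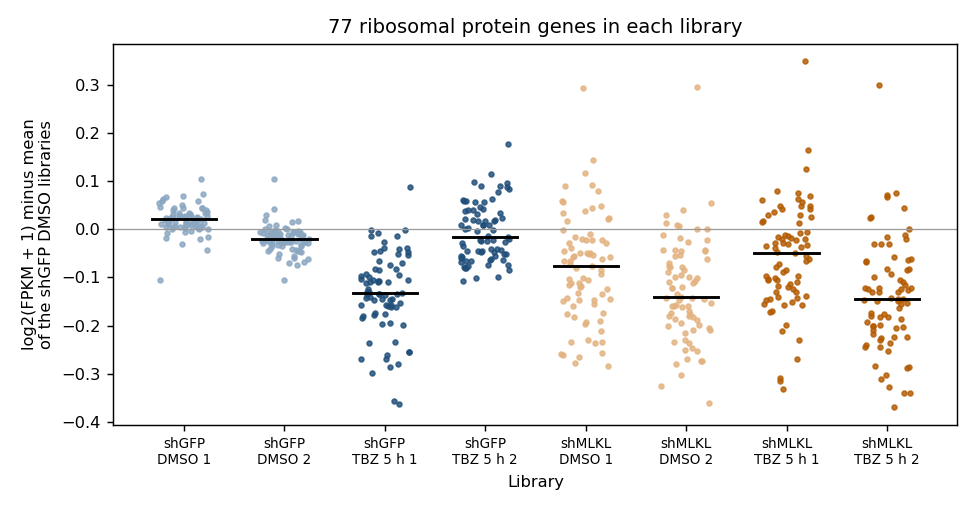
Each point is 1 of 77 ribosomal protein genes (RPL36A left out) in 1 of the 8 libraries of the second experiment; the vertical axis is its log2(FPKM + 1) minus its mean in the 2 shGFP DMSO libraries, and black bars are medians. The first shGFP TBZ library sits lower than the second, with a median gap of 0.12 over the members.

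The known functional groups within the ribosome showed the same near-level values. Of the stalk, which recruits the translation factors, RPLP0 had 662 and 676 FPKM under DMSO and 657 and 688 FPKM under TBZ in shGFP cells, a difference of 0.01 (95% interval −0.11 to 0.12). RPLP1 differed by 0.00 (−0.15 to 0.15) and RPLP2 by −0.07 (−0.21 to 0.07). RPL5 and RPL11, which carry the 5S ribosomal RNA and bind MDM2 when assembly fails, differed by −0.05 (−0.13 to 0.02) and −0.07 (−0.20 to 0.05). RPS6 had 1446 and 1376 FPKM under DMSO and 1398 and 1420 FPKM under TBZ, with the groups interleaved. Its difference of 0.00 had a 95% interval of −0.09 to 0.08. RPS3, which lies at the entry of the message channel and is also described as a binding partner of NF-kB, had 601 and 575 FPKM under DMSO and 625 and 561 FPKM under TBZ, so that the TBZ libraries enclosed the DMSO libraries. RPS27A, made as a fusion with ubiquitin, differed by 0.00 (−0.15 to 0.15) and RPS19, the gene most often mutated in Diamond-Blackfan anaemia, by −0.08 (−0.24 to 0.08). RPL13A, RPL22 and RPL41 differed by −0.09, −0.11 and −0.13, with adjusted p-values of 0.0514, 0.0590 and 0.0584.

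In shMLKL cells 1 member rose under TBZ and 0 fell, against 20% of all genes that rose and 17.6% that fell. At an unadjusted p under 0.05 the count was 4 of 78, beside 4862 of all 10364 genes. The member that rose was RPS26, a small subunit protein at the exit of the message channel. Its level was 48.2 and 46.9 FPKM under DMSO and 56.5 and 54.3 FPKM under TBZ, with no overlap between the groups. The rise was 0.22 in log2(FPKM + 1) (SE 0.0405, limma, adjusted p = 0.00468) and stayed past the threshold in all 21 alternatives (adjusted p up to 0.0313). The members' median difference was 0.01 and that of all genes 0.00 (−0.004). The gap between the shMLKL TBZ replicates, a median of −0.07 over the members, was larger. TBZ libraries lay above both DMSO libraries for 14 members (34.3% of all genes) and below both for 10 (34.4%). Without the first shMLKL TBZ library the members' median was −0.02, and without the second 0.04. Without the first shMLKL DMSO library it was 0.02, and without the second −0.02. Apart from RPL36A, no member differed by more than 0.25. RPS27 was the farthest, with 586 and 453 FPKM under DMSO and 429 and 438 FPKM under TBZ, but its DMSO replicates were far apart and the lower of them was close to the TBZ libraries (−0.25, SE 0.102, adjusted p = 0.0945).

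The second question was whether TBZ acted differently in the 2 lines. For 1 member the difference of the TBZ effects passed the test, with 14.6% of all genes higher in shMLKL and 7.66% lower. This was RPS26 again: in shGFP cells it had 60.1 and 57.8 FPKM under DMSO and 54.5 and 57.04 FPKM under TBZ (−0.08, SE 0.0405, adjusted p = 0.132). Thus the TBZ libraries were lower than the DMSO libraries in shGFP and higher in shMLKL. This contrast uses the same shMLKL libraries as the RPS26 rise above and is not a separate result. The difference of effects was 0.30 (SE 0.0572, limma, adjusted p = 0.0117) and was called in all 20 alternatives that can give it (adjusted p up to 0.0455). At an unadjusted p under 0.05, 4 of 78 members differed, beside 3904 of all 10364 genes. The median over members was 0.08 and over all genes 0.10, a value that rests on the same shGFP TBZ libraries as above. After quantile normalization 15 members were called, all higher (19.2%), beside 10.3% of all genes that were higher. The members' median was 0.13 without the second shGFP TBZ library and 0.12 without the second shMLKL TBZ library. It was 0.06 without the second shMLKL DMSO library. Without the first shGFP TBZ library the median fell to 0.03. Of all called genes 65.6% were higher as deposited, 38.9% with equal medians and 50.8% after quantile normalization.

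**Figure D3:**
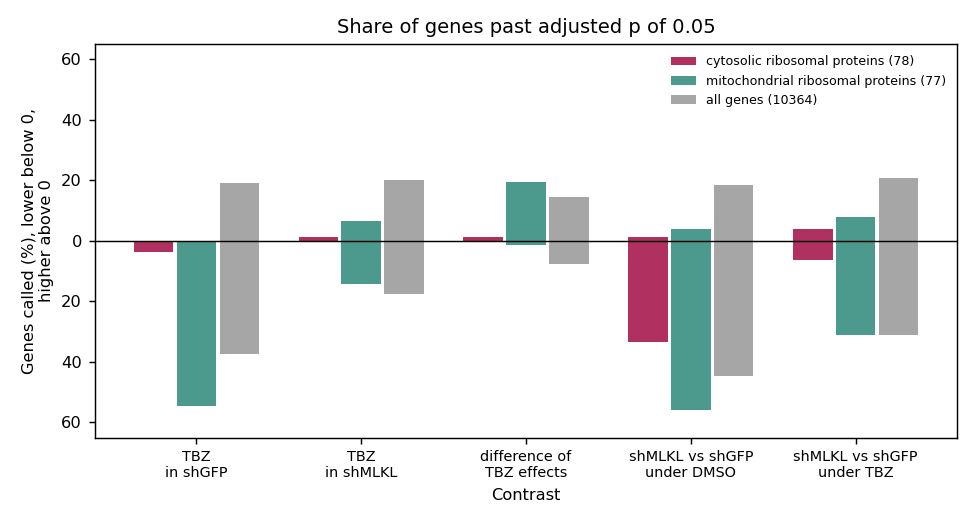
Percentage of genes past an adjusted p of 0.05 in each of the 5 contrasts of the second experiment, higher above 0 and lower below, for the 78 cytosolic members, the 77 mitochondrial ribosomal protein genes and all 10364 tested genes. In the 3 contrasts of TBZ effects 1 to 3 cytosolic members are called; under DMSO 26 of them are lower in shMLKL, a count that changes with the scaling.

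The third comparison set the lines side by side under DMSO. There 1 member was higher in shMLKL than in shGFP and 26 were lower, against 18.3% and 44.8% of all genes. At an unadjusted p under 0.05, 29 of 78 members differed, beside 6924 of all 10364 genes. The median difference was −0.11 for members and −0.16 for all genes. Both shMLKL libraries lay below both shGFP libraries for 54 members (57.4% of all genes) and above for 4 (25.3%). This direction turned with the scaling: with equal library medians 17 members were higher and 2 lower, beside 30.1% and 26.6% of all genes. After quantile normalization 1 was higher and 40 lower (51.3%), beside 27% and 29.8% of all genes. The median of all genes moved from −0.16 as deposited to 0.01 with equal medians and to −0.02 after quantile normalization. Relative to it the members' median was 0.06 as deposited, a value that equal medians cannot change, and −0.13 after quantile normalization. It was also below 0 with a pseudocount of 10 (−0.03), with no filter on low values (−0.04) and with a filter at a mean of 10 FPKM (−0.01). Without the first shGFP DMSO library the members' median difference was −0.08 (all genes −0.16). Without the second shMLKL DMSO library it was −0.08 (all genes −0.15). Of all called genes 29.04% were higher as deposited, 53.1% with equal medians and 47.5% after quantile normalization.

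Among the lower members, RPS26 again had the largest difference apart from RPL36A, whose zeros are described below. Its levels, 60.1 and 57.8 FPKM in shGFP and 48.2 and 46.9 FPKM in shMLKL, did not overlap, and the difference in log2(FPKM + 1) was −0.30 (SE 0.0405, limma, adjusted p = 0.000463). This call held in all 21 alternatives, equal medians included, with differences from −0.33 to −0.14. The RPS26 calls here and above all use the same shMLKL DMSO libraries, the lowest for this gene, and are not separate results. RPL6 came next, with 427 and 413 FPKM in shGFP and 349 and 347 FPKM in shMLKL (−0.27, SE 0.0791, adjusted p = 0.0188). RPL30, a large subunit protein, had 1029 and 1008 FPKM in shGFP and 850 and 843 FPKM in shMLKL (−0.27, SE 0.0507, adjusted p = 0.00266). Both pairs of lines were apart by more than their replicates, and RPL6 was lower by 0.10 to 0.32 and RPL30 by 0.10 to 0.28 over the alternatives, with adjusted p-values up to 0.290 and 0.109. The stalk genes and RPL5, RPL11 and RPS6 were not among the called genes. RPS19 was lower (−0.19, adjusted p = 0.0437), as were RPL13A (−0.14, adjusted p = 0.00740), RPL22 (−0.19, adjusted p = 0.00514) and RPL39 (−0.19, adjusted p = 0.0290). With equal medians RPL13A turned to 0.03, and none of these 4 was called.

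Under TBZ the lines differed in fewer members. There 3 were higher in shMLKL and 5 lower, against 20.7% and 31% of all genes (51.7% either way). Without adjustment, 12 of 78 members and 6007 of all 10364 genes had a limma p under 0.05. The median was −0.04 for members and −0.06 for all genes, and the shMLKL libraries lay above both shGFP libraries for 10 members (31.0% of all genes) and below for 16 (45.3%). Higher were RPL36AL, RPL26 and RPL10A, and lower were RPS27, RPS19, RPL21, RPS20 and RPL28. RPS27 had 538 and 552 FPKM in shGFP and 429 and 438 FPKM in shMLKL, apart in all 4 libraries (−0.33, SE 0.102, limma, adjusted p = 0.0289). RPL26, which binds near the tunnel exit, had 941 and 1010 FPKM in shGFP and 1096 and 1104 FPKM in shMLKL (0.17, SE 0.0469, adjusted p = 0.0172). RPL10A was 0.13 higher (SE 0.0390, adjusted p = 0.0281), RPS19 −0.20 (adjusted p = 0.0422) and RPL21 −0.18 (adjusted p = 0.0476). Of 21 alternatives the call was lost in 13 for RPS19 (limma, adjusted p up to 0.160), 14 for RPL21 (up to 0.239), 8 for RPS27 (up to 0.116), 5 for RPL10A (up to 0.151) and 4 for RPL26 (up to 0.0973). RPS26, lower in shMLKL under DMSO, was level here (−0.01, 95% interval −0.10 to 0.09). The members' median was −0.10 without the first shGFP TBZ library (all genes −0.07) and 0.01 without the second (all genes −0.05). It was −0.08 without the first shMLKL TBZ library (all genes −0.06) and 0.01 without the second (all genes −0.05). The balance of the calls turned with the scaling, to 12 higher and 0 lower with equal medians (27.3% and 22.7% of all genes), 7 and 6 after quantile normalization (25.7% and 23.6%), and 8 and 3 at equal sums (23.0% and 27.5%). Of all called genes 40% were higher as deposited, 54.6% with equal medians and 52.1% after quantile normalization.

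RPL36AL differed between the lines under every setting tried. This gene (hg19 chr14:50085406-50087403, minus strand) encodes nearly the same protein as RPL36A (hg19 chrX:100645878-100651142, plus strand). RPL36AL had 211 and 191 FPKM under DMSO and 195 and 201 FPKM under TBZ in shGFP, and 247 and 247 FPKM under DMSO and 256 and 248 FPKM under TBZ in shMLKL. Every shMLKL library was above every shGFP library. With DMSO the shMLKL cells were 0.29 higher (SE 0.0483, limma, adjusted p = 0.00130). With TBZ they were 0.34 higher (limma, adjusted p = 0.000867), and both differences were called in all 21 alternatives. Between TBZ and DMSO it differed by −0.02 (95% interval −0.13 to 0.09) in shGFP and 0.03 (−0.08 to 0.14) in shMLKL.

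RPL36A went the other way, but its values are broken by zeros. It had 52.4 and 46.3 FPKM in shGFP under DMSO and 40.2 and 56.7 FPKM under TBZ, was listed at 0 in both shMLKL DMSO libraries, and had 42.1 FPKM and 0 in the shMLKL TBZ libraries. The table also lists a read-through transcript, RPL36A-HNRNPH2, which contains RPL36A and runs into its neighbour. The read-through had 92.2 to 97.6 FPKM in the 3 libraries where RPL36A was at 0 and 70.6 to 80.4 FPKM in the other 5, while HNRNPH2 itself was at 0 in all 8. No fold is therefore given for RPL36A alone. Summed with the read-through, RPL36A had 133 and 126 FPKM in shGFP under DMSO and 97.5 and 97.6 FPKM in shMLKL under DMSO, −0.40 on the log2 scale (limma, adjusted p = 0.0139, an alternative chosen after seeing the zeros). RPL36A, the read-through and RPL36AL together came to 344 and 318 FPKM in shGFP under DMSO, 309 and 329 FPKM in shGFP under TBZ, 344 and 345 FPKM in shMLKL under DMSO, and 376 and 340 FPKM in shMLKL under TBZ. Under DMSO the higher shGFP sum was level with both shMLKL sums, and under TBZ both shMLKL sums were above both shGFP sums. How the authors' tools divided reads between RPL36A, its read-through and its near-identical copy is not given in the sources used here, and its part in the values was not tested.

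**Figure D4:**
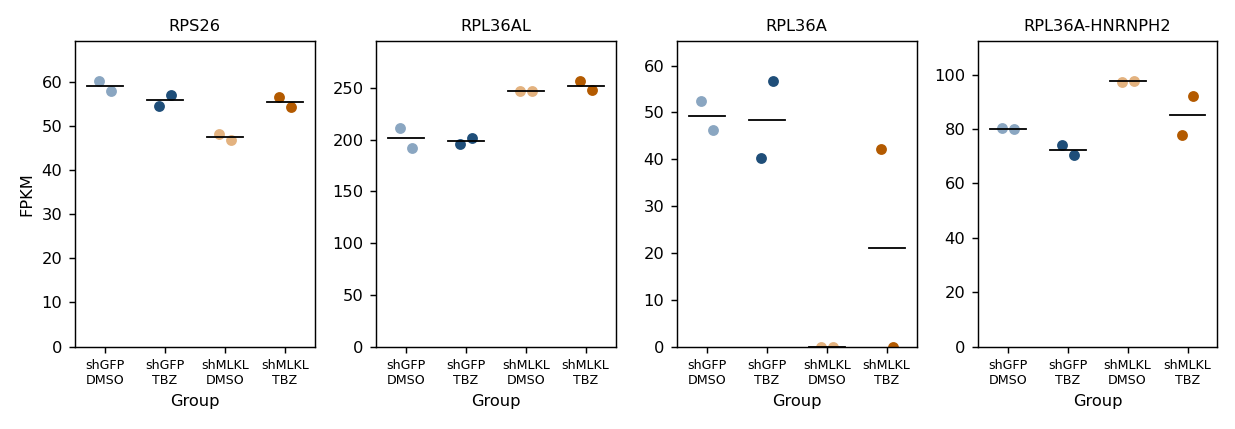
FPKM of RPS26, RPL36AL, RPL36A and the read-through RPL36A-HNRNPH2 in each library of the second experiment (points, 2 in each group) with the group mean (bar). RPS26 is lowest in the shMLKL DMSO libraries, RPL36AL is higher in all shMLKL libraries, and RPL36A is at 0 in the 3 libraries where the read-through is highest.

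The first experiment has 1 library a group, so it gives no test. Gene values there were summed over the RefSeq transcripts of a gene, and a called difference means more than 1.5-fold among genes with at least 5 FPKM in 1 of the 2 libraries. MLKL stood at 6.31 FPKM in parental and 0.854 FPKM in shMLKL cells under DMSO. After 4 h of TBZ in parental cells, 47 of 77 members were higher and 30 lower, with a median difference of 0.04, whereas the median of all genes was −0.19. Past 1.5-fold lay 6 members that were higher (15.7% of all genes) and 2 that were lower (26.6%). After 12 h of TBZ in shMLKL cells 14 were higher and 63 lower, with a median of −0.22 against −0.13 for all genes. Here 4 members were past 1.5-fold higher (15.6% of all genes) and 9 lower (22.2%). Under DMSO the shMLKL library was lower than the parental one for 60 of 77 members, with a median of −0.27 against 0.07 for all genes, and 4 members were past 1.5-fold higher (15.5%) and 12 lower (11.5%).

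For many of the members with the widest swings in these single libraries, the value depended on which transcripts were summed. Cufflinks placed 8.71 to 15.1% of the members' FPKM on transcripts it had assembled at the same locus and that carry no RefSeq name. RPL7, a large subunit protein, went from 775 to 2221 FPKM in parental cells by RefSeq transcripts, and from 2434 to 2221 FPKM by the whole locus. RPS27A went from 608 to 1335 FPKM by RefSeq transcripts and from 2100 to 1335 FPKM by the locus. For both genes the sign of the difference turned. RPS19 rose from 732 to 1621 FPKM by both sums, in a locus it shares with another gene. Among the lower, RPL23A went from 1062 to 602 FPKM by RefSeq transcripts and from 1062 to 2368 FPKM by the locus. By RefSeq transcripts RPL13 went from 65.6 to 37.4 FPKM, by the locus it went from 2448 to 1842 FPKM. Of these 5 genes, the direction held under both sums for RPL13. For RPS19 no assembled transcripts were added in this pair, so its sums were the same numbers and give no second reading. Where they were added, in the 12 h shMLKL pair, RPS19 differed by 0.13 by RefSeq transcripts and by −0.77 by the locus.

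In the 12 h pair in shMLKL cells the sign also turned for RPS23, RPL37, RPL10 and RPS20, but not for RPL7 or RPL34. By RefSeq transcripts RPL7 went from 1651 to 423 FPKM, RPS23 from 219 to 88.1 FPKM and RPL37 from 668 to 336 FPKM. By the whole locus RPL7 went from 1651 to 1217 FPKM, RPS23 from 219 to 1154 FPKM and RPL37 from 668 to 2053 FPKM. RPS20 went from 158 to 430 FPKM by RefSeq transcripts and from 1203 to 710 FPKM by the locus. RPL10 and RPL34 were listed at 0 in the shMLKL DMSO library by RefSeq transcripts and at 212 and 220 FPKM after TBZ. By the locus RPL10 had 2777 and 2026 FPKM. RPL34, in a locus shared with another gene, stayed at 0 and 220 FPKM by the locus. Assembled transcripts were not added where a locus was shared. RPL21 was at 0 in all 4 libraries. By the locus, the medians of the set were 0.03 after 4 h, −0.23 after 12 h and −0.27 between the lines. Past 1.5-fold by the locus lay 5 members higher and 4 lower after 4 h (12.5% and 24.9% of all genes), 6 and 7 after 12 h (12.1% and 17.9%), and 4 and 11 between the lines (11.1% and 6.85%).

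**Figure D5:**
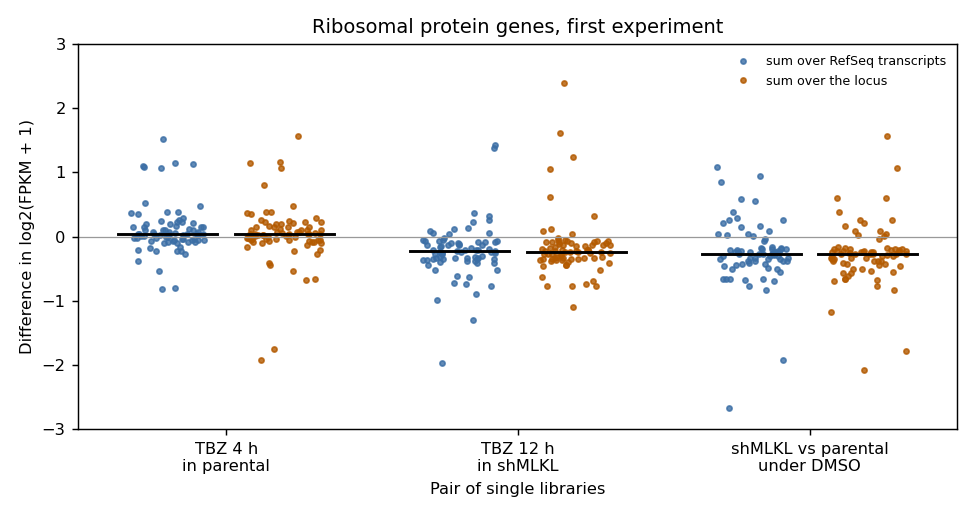
Difference in log2(FPKM + 1) between pairs of single libraries of the first experiment, 1 point for each ribosomal protein gene with at least 5 FPKM in 1 of the 2 libraries and above 0 in both (75 to 77 genes), by RefSeq transcripts (blue) and by the whole locus (orange); bars are medians. Most genes sit near the bar, and both sums leave single genes more than 1 away from 0.

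The genes that stood out in the second experiment can be read in the first. RPS26 (hg19 chr12:56435686-56438007, plus strand) had 477 FPKM in parental cells with DMSO and 488 FPKM with TBZ, and 386 FPKM in shMLKL cells with DMSO and 299.9 FPKM with TBZ. It was level at 4 h (0.04), and lower in shMLKL under DMSO (−0.30, where the median member was −0.27). Its intervals in the transcript lists did not overlap there, which held for 58 lower and 12 higher of the 81 members. The share over all genes was not counted. Each interval belongs to a single library and does not measure a spread between cultures. The 12 h difference of RPS26 was −0.36, where the median member was −0.22 and 63 of 77 were lower. It was opposite in sign to the 5 h difference in shMLKL cells of the second experiment, at another time and in single libraries. RPL36AL had 121, 175, 183 and 195 FPKM in the same order by RefSeq transcripts, and 172, 175, 183 and 195 FPKM by the locus. RPL36A, in a locus shared with another gene, was above 0 in all 4 libraries, with 721, 920.2, 444 and 553 FPKM, and was lower in the shMLKL library than in the parental one under DMSO (−0.70). RPS27L had 24.8, 18.8, 32.7 and 22.4 FPKM by RefSeq transcripts, and 24.8, 75.8, 32.7 and 78.8 FPKM by the locus, so that the TBZ library was the lower of each pair by the first sum and the higher by the second. In the second experiment it was level, with 32.3 and 31.7 FPKM under DMSO and 27.03 and 32.2 FPKM under TBZ in shGFP (−0.11, 95% interval −0.34 to 0.11), and 0.06 (−0.16 to 0.28) in shMLKL.

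The order of the genes was shared in part between the experiments. Over 77 genes above 0 in both, Spearman's rho of mean FPKM was 0.66 by RefSeq transcripts and 0.58 by the locus, a description over genes that share libraries and pipeline. The locus mean of the first experiment was 0.807 to 46.0 times the mean of the second, with a median of 2.72. RPL13 was among the lowest members in the second experiment, yet at 1082 to 2448 FPKM by locus in the first. What set these differences was not tested.

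Other genes of the ribosome and of translation were read from lists, chosen with earlier results of these data known. Of 7 other genes on a list of ribosomal proteins and their relatives outside the symbol rule, such as RPSA and FAU, 1 rose and 1 fell under TBZ in shGFP and 0 were called in shMLKL. These were RPL7L1 (0.15, SE 0.0405, limma, adjusted p = 0.0136), a paralog of RPL7, and RPS19BP1 (−0.22, SE 0.0768, adjusted p = 0.0421), which binds RPS19 and is not a ribosomal protein. Beside the counts of these lists, 19.1% of all genes rose and 37.3% fell in shGFP, and 20% rose and 17.6% fell in shMLKL. Of 22 translation factors and related genes with TOP messages 3 rose and 6 fell in shGFP (13.6% and 27.3% of the list), and 3 rose and 3 fell in shMLKL (13.6% each). IPO7, an importin that carries ribosomal proteins into the nucleus, rose by 0.42 in shGFP (adjusted p = 3.26e-05) and by 0.20 in shMLKL (adjusted p = 0.00215). EIF4B, a cofactor of the helicase EIF4A, fell by 0.24 (adjusted p = 0.000842) and 0.12 (adjusted p = 0.0363), and EIF4A2 fell by 0.29 in shMLKL (adjusted p = 0.00105), with −0.04 in shGFP.

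Of 77 mitochondrial ribosomal protein genes, nuclear genes for the ribosome inside mitochondria, 0 rose and 42 fell (54.5%, beside 37.3% of all genes) under TBZ in shGFP, with a median difference of −0.24. In shMLKL 5 rose and 11 fell (14.3%, beside 17.6% of all genes), with a median of −0.07. MRPS26 went from a mean of 5.80 to 3.43 FPKM in shGFP (−0.62, SE 0.102, limma, adjusted p = 0.00157). MRPL12, which also binds the mitochondrial RNA polymerase, went from 34.0 to 22.5 FPKM (−0.58, SE 0.0596, adjusted p = 0.000149), and MRPS14 from 11.2 to 7.20 FPKM (−0.57, SE 0.0710, adjusted p = 0.000382). The cytosolic members, most of them at far higher levels, had 0 of 78 past 0.25 under TBZ in shGFP. The mitochondrial ones had 37 of 77 (48.1%), near the 48.6% of all genes. This describes the 2 lists and is not a test between them.

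Biogenesis genes encode the factors that transcribe ribosomal RNA and assemble the subunits. Of 54 biogenesis genes 6 rose and 25 fell in shGFP (46.3% fell, beside 37.3% of all genes, with a median of −0.15). In shMLKL 3 rose and 19 fell (35.2% fell, beside 17.6% of all genes, with a median of −0.10). UBTF, which opens ribosomal DNA for RNA polymerase I, went from 11.1 to 5.34 FPKM in shGFP (−0.93, SE 0.0502, limma, adjusted p = 4.49e-06) and from 6.20 to 4.92 FPKM in shMLKL (−0.28, adjusted p = 0.00377). RRS1, which helps to load the 5S particle, fell by 0.72 (adjusted p = 0.000467) and 0.57 (adjusted p = 0.00248), and RIOK2, a kinase of late small subunit maturation, rose by 0.57 in shMLKL (adjusted p = 0.00271). Among 14 tested regulators 2 rose and 4 fell in shGFP (14.3% and 28.6%, beside 19.1% and 37.3% of all genes), and 4 rose and 4 fell in shMLKL (28.6% each, beside 20% and 17.6%). MYC, a driver of ribosome production, had 55.3 and 56.1 FPKM under DMSO and 31.1 and 30.8 FPKM under TBZ in shGFP (−0.83, SE 0.0333, adjusted p = 9.40e-07), and fell by 0.61 in shMLKL (adjusted p = 1.02e-05). LARP1, the protein that binds TOP starts, went from 47.1 to 30.4 FPKM in shGFP (−0.61, SE 0.0400, adjusted p = 1.31e-05) and from 38.6 to 25.7 FPKM in shMLKL (−0.57, adjusted p = 3.59e-05). NXF1, the exporter of messages from the nucleus, rose by 1.38 (adjusted p = 3.14e-06) and 1.30 (adjusted p = 9.12e-06). Of the snoRNA host genes on the list 2 were in the table, and TAF1D rose by 0.15 in shGFP (adjusted p = 0.00724).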

How the data were processed

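HT-29 poly-A RNA was sequenced as stranded paired-end libraries, per the labels' protocols. The submitters' processing notes name hg19 and, with no role or order, STAR 2.4.0f1, TopHat2 2.0.13, GATK and Cufflinks 2.2.1. The authors deposited a table of gene values for the 8 libraries of the second experiment, whose header names no unit (taken as FPKM from the values), and a Cufflinks transcript list with FPKM and its interval for each library of the first. No counts were used, so depth is relative only and no counting interval can be given.

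The members and lists were chosen with earlier results of these data known. Named genes were MLKL, the stalk, 5S and L-copy genes with their parents, 7 textbook members, the 3 largest called rises and falls of each contrast, members with a 0, and up to 3 called genes of each list. A few genes that this rule names are not reported here. For a symbol on several lines (87 lines for 81 members) its highest line by mean was used. The model on log2(FPKM + 1) had a mean for each of 4 groups (limma 3.58.1 under R 4.3.3, trended empirical Bayes, two-sided, Benjamini-Hochberg over 10364 genes in each of 5 contrasts, threshold 0.05) and tested on simulated data. Differences are on this scale, which understates changes of low genes. Replicate numbers were not a block: residuals of same-numbered libraries correlated at −0.066 to 0.028.

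In the first experiment transcripts were matched to symbols by RefSeq accession. The alternatives were other pseudocounts, filters, scalings, line choices, spread models and each library left out, and, chosen after seeing the data, RPL36A with its read-through and FPKM summed over a locus. Start-site sequences are RefSeq's on GRCh38.p14, and all other coordinates are hg19.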

Additional observations from a re-analysis of the deposited data

Results flagged for a closer look

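For the following genes the effect of TBZ differed between shMLKL and shGFP cells by the test of the difference itself (limma, adjusted over 10364 genes, 2 libraries a group); differences are in log2(FPKM + 1), shMLKL effect minus shGFP effect. RPS26 differed by 0.30 (adjusted p = 0.0117), with TBZ libraries higher in 2 of 2 in shMLKL and lower in 2 of 2 in shGFP. Among mitochondrial ribosomal protein genes MRPL12 differed by 0.49 (limma, adjusted p = 0.00722) and MRPS14 by 0.51 (adjusted p = 0.0125). Both were already lower in shMLKL than in shGFP under DMSO. MRPL12 had a mean of 18.2 against 34.0 FPKM, and MRPS14 5.69 against 11.2 FPKM. With TBZ they stood at 17.1 and 5.39 FPKM in shMLKL. UBTF differed by 0.65 (adjusted p = 0.000982) and MYC by 0.22 (adjusted p = 0.0169), both falling less in shMLKL. EIF4A2 differed by −0.25 (adjusted p = 0.0192), IPO7 by −0.21 (adjusted p = 0.0164) and TAF1D by −0.18 (adjusted p = 0.0415). MLKL, the gene that the hairpin targets, differed by 0.66 (adjusted p = 0.0147), with 0.606 and 0.545 FPKM in shMLKL under DMSO. In shGFP it went from 3.95 and 3.89 FPKM under DMSO to 1.98 and 2.03 FPKM under TBZ (−0.71, limma, adjusted p = 0.000595). In shMLKL MLKL was below 1 FPKM in every library, which left little room for a fall on the log2(FPKM + 1) scale (−0.05).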

How the results depend on the processing

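The counts of called members depended on the settings more than the calls of RPS26 and RPL36AL, which held in every alternative. The RPS26 calls share the shMLKL DMSO libraries. For TBZ in shGFP (3) the count was 5 with a pseudocount of 0.1, 0 without a filter, 1 with equal library medians, 40 after quantile normalization, 32 at equal sums, 0 without a trend, 6 with a robust fit, and 1 with the replicate block. For TBZ in shMLKL (1) it was 2 after quantile normalization and 2 with the replicate block. For the difference of effects (1) it was 15 after quantile normalization, all higher (19.2%, beside 10.3% of all genes). For the lines under DMSO (27) quantile normalization gave 41. Equal medians gave 19 there, but 17 were higher and 2 lower (30.1% and 26.6% of all genes), against 1 and 26 as deposited. For the lines under TBZ (8) the count was 2 without a filter and 13 after quantile normalization. It was 4 with only the libraries compared, 4 without a trend, and 12 with equal medians, all higher (27.3% of all genes). With each library left out in turn the counts ranged from 0 to 17 for TBZ in shGFP, 1 to 4 for TBZ in shMLKL, 1 to 5 for the difference, 12 to 29 for the lines under DMSO and 3 to 14 under TBZ; a group left with 1 library is assumed to vary like the others. The replicate block changed no other count by over 1.5 times. Between the lines under DMSO, equal medians turned the members' median from −0.11 to 0.06. Among members called as deposited, equal medians turned RPL13A to 0.0256, RPL15 to 0.0201 and RPL28 to 0.00829. They also turned RPL37 to 0.0220, RPL4 to 0.0713 and RPS24 to 0.0377, and quantile normalization turned RPL4 to 0.0204. In the first experiment, dividing by the median ratio of all genes moved the members' median to 0.25 (4 h, parental), −0.0914 (12 h, shMLKL) and −0.34 (shMLKL against parental). Except as stated, the cause of these changes was not tested. With 2 libraries a group, and FPKM in place of counts, differences of the size seen between replicates cannot be resolved.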
